A study of Mus musculus with 4 samples.

Results

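The HoxD cluster of the mouse holds 9 Hoxd genes, and all 9 were measured by 1 probe set each among 23185 named genes: Hoxd13, Hoxd12, Hoxd11, Hoxd10, Hoxd9, Hoxd8, Hoxd4, Hoxd3 and Hoxd1, in order from the 5′ to the 3′ end. They were chosen by symbol. Their expression was compared in forelimb tissue of C57BL/6 embryos at stage E11.5, between wild-type embryos and embryos labelled SHOX2-KO. The label names a knockout of the homeodomain factor Shox2. Each genotype had 2 arrays, with the numbers 48 and 50 in their titles, and each array held RNA pooled within a genotype, from 3 to 4 forelimbs by the sample labels and 3 to 4 embryos by the series' design text. That text adds that the RNA came from 2 different pregnancies; the labels do not say which number belongs to which pregnancy, nor whether Shox2 was deleted in the whole embryo or in a single tissue. Values are log2 expression per probe set, so that a difference of 1 is a doubling.

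Hox genes encode homeodomain transcription factors that give cells positional identity, and within a cluster they are switched on in the order in which they lie on the chromosome. In the limb bud the HoxD cluster is used in an early phase for the upper arm and forearm, driven by enhancers beyond its 3′ end, and in a later phase for the hand plate, driven by enhancers beyond its 5′ end. The 5′ genes are expressed most strongly towards the posterior and distal limb, where Shh signalling keeps the GLI3 repressor low, and loss of Hoxd13 alters the digits.

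Tbx5, which marks the forelimb, had log2 values of 12.25 to 12.48 on the 4 arrays, and the hindlimb gene Pitx1 was too dim to be tested. Tbx4, another hindlimb gene, was measured above that limit, at 7.42 and 7.18 in the knockout against 6.76 and 6.77 in the wild type (difference 0.54; limma, unadjusted p = 0.00143). In the knockout pools Shox2 itself measured 9.58 (number 48) and 8.88 (number 50), against 10.57 and 10.37 in wild-type pools, and its difference of -1.24 ± 0.21 (log2, SE, n = 2 pools of each genotype) missed the threshold over all genes tested (adjusted p = 0.322, limma). The sources used here do not give the place of its probes relative to the deletion. Of 14095 genes bright enough to be tested, 3 (0.0213%) passed limma's test at an adjusted p under 0.05, all of them Y-linked and higher in both knockout pools. All 4 sex-linked genes measured separated the genotypes, in opposite directions: Eif2s3y, Uty and Kdm5d differed by 4.29, 4.15 and 3.48, and Xist, the X-inactivation RNA, by -1.01. Their mean log2 level was 9.90 to 9.96 in knockout pools against 7.20 to 7.21 in wild-type pools. All 6 endothelial markers had lower values in the knockout (mean log2 level 8.85 to 8.88 against 9.06 to 9.10). Of the markers of limb mesenchyme, 5 of 6 had higher ones (10.85 to 10.89 against 10.63 to 10.73). The largest of these differences was that of Msx1 (0.51), which is also on the list of distal genes below. Tbx5 (0.024) and Pdgfra (-0.016) hardly differed. The macrophage list stood at 6.50 to 6.51 against 6.53 to 6.54, and the ranges of the erythroid, muscle, nerve and ectoderm lists overlapped. The sex-linked difference ran with genotype on all 4 arrays: Eif2s3y read 9.56 and 9.65 in the knockout, against 5.37 and 5.26 in the wild type. In the Hoxd values, a difference by sex of the pooled embryos and one by genotype therefore cannot be told apart. The part of the other differences between the pools in the Hoxd values was not tested. In pooled tissue a different share of cells and a different amount of RNA per cell cannot be told apart.

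The 4 genes at the 5′ end of the cluster, Hoxd13, Hoxd12, Hoxd11 and Hoxd10, read higher in each knockout pool than in either wild-type pool, while the genes from Hoxd9 to Hoxd1 did not separate the genotypes. Expressed as fold, the knockout means were 3.41 times the wild-type mean for Hoxd13, 1.49 for Hoxd12, 1.37 for Hoxd11 and 1.36 for Hoxd10. None of the 9 passed the test over all genes, where the smallest adjusted p among the 8 tested was 0.322 (limma, no covariate). Taking the array number, whose meaning the labels do not give, as a block brought all 4 of the 5′ genes past the threshold, along with many other genes. All 4 of the 5′ genes had an unadjusted p under 0.05 on the higher side, out of 8 Hoxd genes tested, and 731 of all tested genes (5.19%) did so. Counted in either direction it was also 4 of the 8, against 10.2% of all tested genes. Both knockout arrays stood above both wild-type arrays for 4 of the 8 members, compared with 22.1% of all tested genes, and below them for 0, compared with 19.9%.

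**Figure D1:**
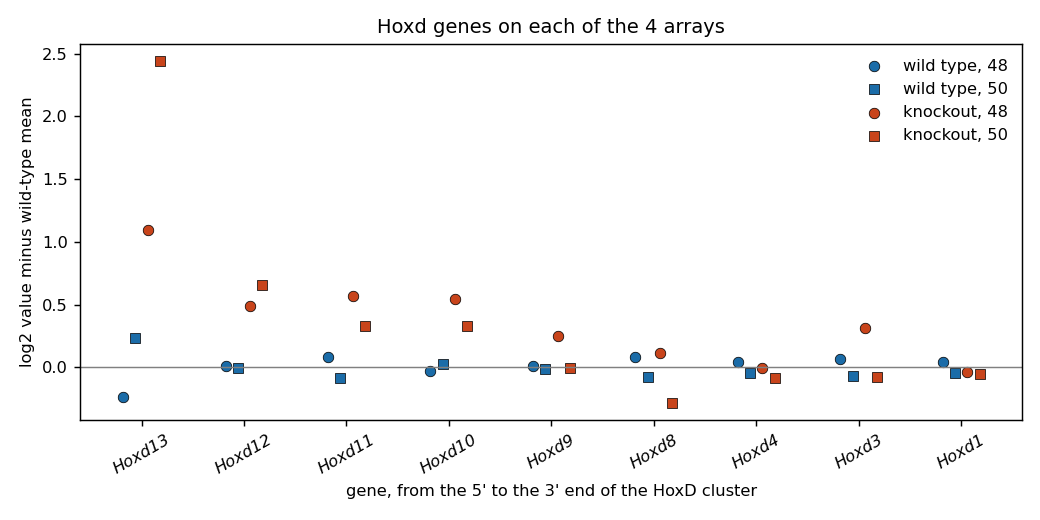
Log2 value of each Hoxd gene on each of the 4 arrays, minus that gene's wild-type mean; blue marks wild type, orange knockout, circles number 48 and squares number 50. For the 4 genes on the left both orange points lie above both blue ones, and for the other 5 the colours overlap.

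Since these 4 genes are neighbours and differed in the same direction, the 250 bases before each annotated gene start are shown, from RefSeq on GRCm38.p6, each read 5′ to 3′ along the gene. All 9 Hoxd genes matched an entry, and Hoxd11 had 2 annotated starts. Capitals mark TAAT on either strand, the core that many homeodomains recognise, and TATAAA on either strand, the letters of a TATA box. Matches were taken anywhere in the 250 bases, whatever their distance from the gene start. Neighbouring matches can overlap and then run together.
Hoxd13, chr2:74667975-74668224, + strand: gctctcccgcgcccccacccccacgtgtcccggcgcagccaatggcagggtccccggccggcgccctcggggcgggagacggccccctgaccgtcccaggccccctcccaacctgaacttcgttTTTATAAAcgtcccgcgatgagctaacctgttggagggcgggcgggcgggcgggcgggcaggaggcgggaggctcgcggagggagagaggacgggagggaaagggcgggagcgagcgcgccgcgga
Hoxd12, chr2:74674763-74675012, + strand: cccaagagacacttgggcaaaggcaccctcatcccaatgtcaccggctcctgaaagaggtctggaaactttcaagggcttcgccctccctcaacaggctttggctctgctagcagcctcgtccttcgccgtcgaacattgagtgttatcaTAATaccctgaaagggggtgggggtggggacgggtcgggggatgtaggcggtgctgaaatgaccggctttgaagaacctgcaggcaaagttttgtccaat
Hoxd11, first window, chr2:74679308-74679557, + strand: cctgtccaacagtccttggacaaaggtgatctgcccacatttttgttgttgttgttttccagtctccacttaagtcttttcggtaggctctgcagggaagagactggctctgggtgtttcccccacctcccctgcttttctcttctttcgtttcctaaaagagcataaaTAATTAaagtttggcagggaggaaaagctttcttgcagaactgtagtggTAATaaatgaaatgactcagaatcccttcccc
Hoxd11, second window, chr2:74682073-74682322, + strand: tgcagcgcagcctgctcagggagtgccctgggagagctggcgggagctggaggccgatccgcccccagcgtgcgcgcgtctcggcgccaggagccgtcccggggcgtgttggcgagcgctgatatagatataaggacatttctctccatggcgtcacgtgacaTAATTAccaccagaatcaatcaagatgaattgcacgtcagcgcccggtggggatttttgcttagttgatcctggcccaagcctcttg
Hoxd10, chr2:74691641-74691890, + strand: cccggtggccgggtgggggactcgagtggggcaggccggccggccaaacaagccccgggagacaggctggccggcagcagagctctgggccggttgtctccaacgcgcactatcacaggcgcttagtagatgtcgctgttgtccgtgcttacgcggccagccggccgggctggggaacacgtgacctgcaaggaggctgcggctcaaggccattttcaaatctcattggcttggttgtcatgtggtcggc
The Hoxd13 window was the richest in G and C of the 5, at 74.4%, higher than or equal to 95.8% of all 32851 such windows, whose median was 52.4%. It held the run TTTATAAA, which matches TATAAA on both strands, and no TAAT. The run lies near the middle of the window, and whether it works as a TATA box was not tested. Among the other Hoxd windows, that of Hoxd4 also held TATAAA. Of all windows, 12.4% held TATAAA and 54.9% held TAAT. TAAT occurred 1 time in the window of Hoxd12, 3 times in the first and 2 times in the second window of Hoxd11, and not in that of Hoxd10. Among the remaining members, Hoxd9 and Hoxd3 had 1 TAAT each, Hoxd8 had 2, and Hoxd4 and Hoxd1 had none. GACCACCCA, a site of the kind GLI proteins bind (0.225% of all windows), and CAATAAA, of the kind HOX13 proteins bind (4.2%), were searched on both strands and had no match in any Hoxd window. These matches describe the letters of the windows, and the arrays carry no measurement of binding there.

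Hoxd13, the most 5′ gene, specifies the hand plate and digits. Its values were 7.91 (number 48) and 9.25 (number 50) on the knockout arrays, against 6.58 and 7.04 on those of the wild type. Both knockout values were thus higher, but they lay further apart from each other than the lower of them lay from the higher wild-type value. The log2 difference of 1.77 ± 0.40 (SE, n = 2 for each genotype) had a 95% interval of 0.82 to 2.72 in the moderated fit and an adjusted p of 0.322 (limma). By size it was the fourth highest of all tested differences, after those of Eif2s3y, Uty and Kdm5d, all Y-linked. Hoxd13 was the only Hoxd gene at least 1.5-fold higher in the knockout, which 36 of all tested genes (0.255%) were. The value depended on the knockout array used. Leaving out knockout array 48 gave 2.44, which passed limma's test over all genes (adjusted p = 0.0349), and leaving out knockout array 50 gave 1.10, which did not. Each of these fits has 1 knockout array, assumed to vary like the wild-type pair, so that its p rests on the spread of the wild-type arrays and of other genes.

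Hoxd12, its neighbour, is also expressed in the posterior distal limb. It measured 7.32 (number 48) and 7.49 (number 50) in the knockout, against 6.84 and 6.83 in the wild type. The 2 arrays of each genotype lay close together, and the gap between the genotypes was wider than either spread. Its difference of 0.57 ± 0.090 (SE, n = 2 pools per genotype), with a 95% interval of 0.36 to 0.79, had the smallest SE of the 4. By unadjusted p (0.000458, limma) it ranked 17 among all tested genes, ahead of Hoxd13, which was more than 3 times as different but ranked 146.

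Hoxd11 acts with Hoxa11 in the forearm. Its values were 11.18 and 10.94 in the knockout, against 10.69 and 10.53 in the wild type, giving a difference of 0.45 ± 0.11 (SE; 95% interval 0.18 to 0.71). Hoxd10, which takes part in patterning the upper arm and forearm, measured 11.42 and 11.20 in the knockout, against 10.84 and 10.90 in the wild type. Its difference was 0.44 ± 0.099 (SE; 95% interval 0.20 to 0.68). For both genes the knockout array numbered 48 was the highest of the 4, whereas for Hoxd13 and Hoxd12 it was the knockout array numbered 50. The annotated spans of Hoxd10 and Hoxd11 overlap, and the sources used here do not give the positions of their probes, so signal from shared sequence and separate differences of the genes cannot be told apart.

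Towards the 3′ end the genotypes overlapped. Hoxd9, a gene of the upper limb, measured 7.62 and 7.36 in the knockout, against 7.38 and 7.35 in the wild type, a difference of 0.13 ± 0.10 (SE; 95% interval -0.12 to 0.38; limma, adjusted p = 0.725). Only the knockout array numbered 48 stood apart from the other 3. Hoxd8 read 6.74 and 6.35 against 6.71 and 6.55, a difference of -0.084 ± 0.14 (95% interval -0.42 to 0.25). Hoxd4, expressed in early and proximal limb tissue, read 7.45 and 7.38 against 7.50 and 7.42, the narrowest spread among the tested members, with a difference of -0.045 ± 0.083 (95% interval -0.24 to 0.15). Hoxd3 read 6.56 and 6.16 against 6.31 and 6.17, a difference of 0.12 ± 0.14 (95% interval -0.21 to 0.45). For Hoxd8 and Hoxd3 the knockout pools differed from each other by 0.39 each, more than the genotypes did. The annotated span of Hoxd3 overlaps that of Hoxd4, so their probe sets may share sequence too. Each of these intervals leaves room for a difference in either direction.

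Hoxd1, at the 3′ end, was the only member too dim to be tested: its mean over the arrays stood at percentile 36.2 of all probe sets, below the limit of percentile 40. Its values were 5.51 and 5.50 in the knockout, against 5.59 and 5.51 in the wild type. Tested without that limit, its difference was -0.048 ± 0.047 (limma, adjusted p = 0.824), and near the bottom of the array's range a difference would be compressed.

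**Figure D2:**
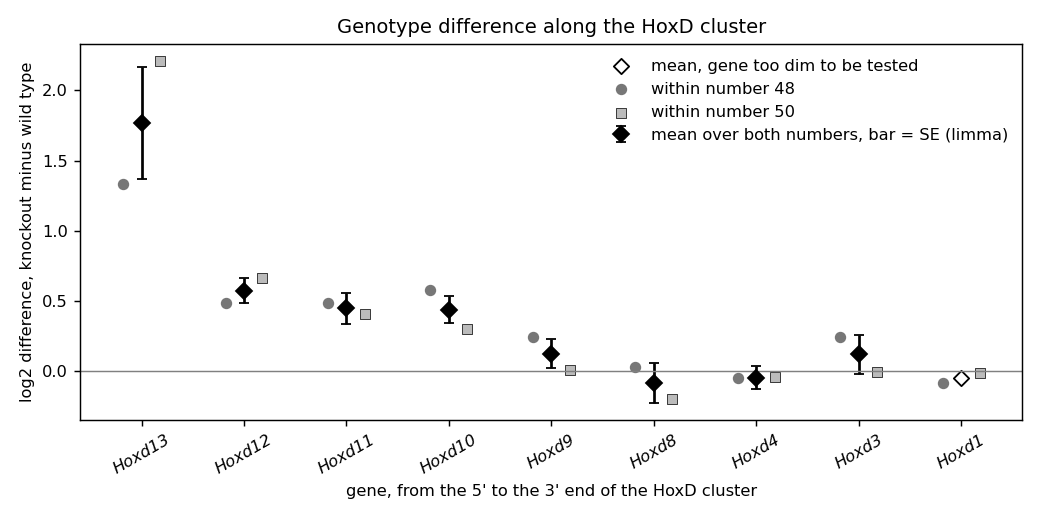
Log2 difference between knockout and wild type for each Hoxd gene in cluster order; black diamonds are means over both array numbers with the SE of the moderated fit, grey circles and squares the differences within numbers 48 and 50. The 4 genes at the 5′ end lie above 0 at both numbers, with Hoxd13 at 1.77. So does Hoxd9, at 0.24 and 0.011, and from Hoxd9 onwards the means lie between -0.084 and 0.13.

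Read along the chromosome, the difference was largest at Hoxd13, lay between 0.44 and 0.57 over the next 3 genes and was near 0 from Hoxd9 on. Across the 8 tested genes, Spearman's rho between place in the cluster, counted from the 5′ end, and difference was -0.90; the genes share the same 4 arrays, so this describes the order only. The median difference over the 8 was 0.28, and -0.00098 over all tested genes. Within number 48 it was 0.36 and within number 50 it was 0.16, and it was also 0.16 with knockout array 48 left out. Knockout values were higher at both numbers for 5 of the 8 (32.1% of all tested genes) and lower at both for 1, Hoxd4 (31.0%). Hoxd13 and Hoxd12 differed more between the arrays numbered 50 (2.21 and 0.67) than between those numbered 48 (1.33 and 0.48). Hoxd11 and Hoxd10 differed less (0.41 and 0.30 against 0.49 and 0.58). Hoxd9 differed by 0.24 at number 48 and 0.011 at number 50, and Hoxd3 by 0.25 and -0.0078. With 1 array per genotype at each number, these changes of the difference have no test.

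**Figure D3:**
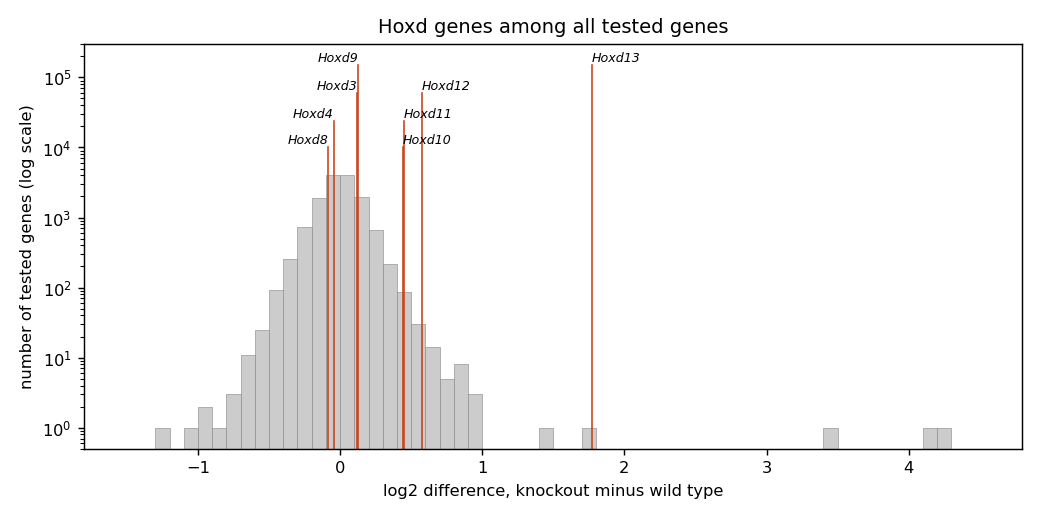
Histogram of the log2 difference between knockout and wild type over all 14095 tested genes, with the count on a log scale; orange lines mark the 8 tested Hoxd genes. Hoxd13 lies at 1.77, apart from the bulk of genes, Hoxd12, Hoxd11 and Hoxd10 lie at the upper edge of it, and the other 4 lie near its centre.

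The array numbers gave a different pattern from the genotypes. Hoxd13 was higher on number 50 than on number 48 in both genotypes, by 1.34 in the knockout pools and by 0.46 in the wild-type pools, and was the only one of the 8 to be so; 32.3% of all tested genes were. The next 3 genes did not share this: Hoxd12 differed by 0.17 and -0.016, Hoxd11 by -0.24 and -0.16, and Hoxd10 by -0.22 and 0.055 (knockout and wild type). Hoxd11, Hoxd9, Hoxd8, Hoxd4 and Hoxd3 were lower on number 50 in both genotypes, 5 of 8 against 28.8% of all tested genes. In Hoxd8 and Hoxd3 the difference was -0.39 in the knockout, against -0.16 and -0.14 in the wild type.

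In a limma fit with genotype and number as terms, which leaves 1 residual degree of freedom, Hoxd13 was higher on number 50 by 0.90 ± 0.16 (SE; adjusted p = 0.0368), and 0.440% of all genes passed on that side. The call of Hoxd13 was lost without the filter on dim genes (limma, adjusted p = 0.321) and with a robust variance model (0.296). It was also lost without the genotype term (limma, adjusted p = 0.833), where the genotype difference of Hoxd13 itself counts as spread. With an intensity trend the adjusted p of Hoxd13 was 7.36e-07 (limma). At an unadjusted p under 0.05, Hoxd13 was the only member higher on number 50 (7.38% of all genes), and Hoxd11 (-0.20), Hoxd8 (-0.28) and Hoxd3 (-0.27) were lower (8.10% of all genes). Hoxd11 also passed over all genes with an intensity trend (limma, adjusted p = 0.0227), where its adjusted p was 0.245 without one. Hoxd13 thus had higher values in the knockout and on number 50, and Hoxd11 higher values in the knockout and lower ones on number 50. What the numbers stand for is not given in the labels, so pregnancy, stage and handling cannot be told apart.

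**Figure D4:**
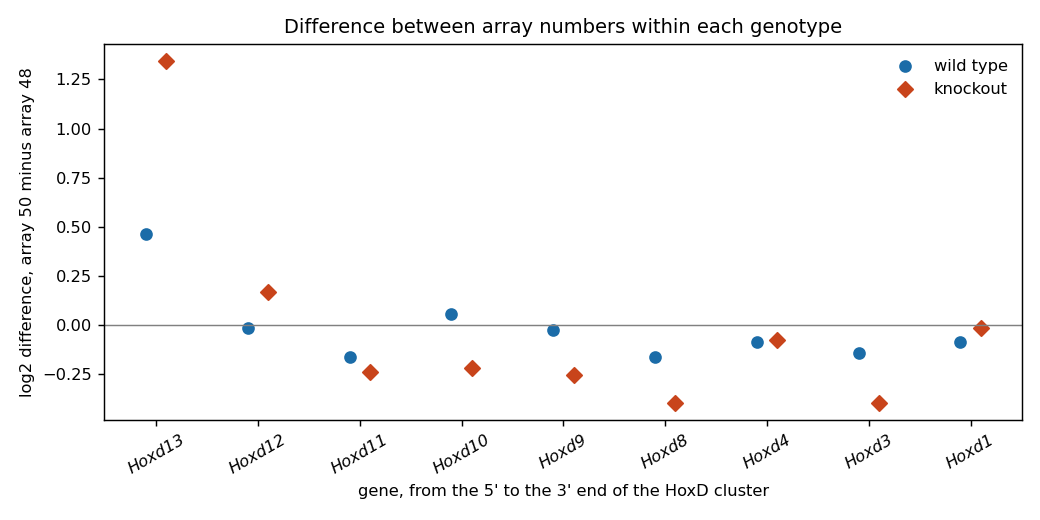
Log2 difference between the array numbered 50 and the array numbered 48 for each Hoxd gene, within the wild type (blue circles) and within the knockout (orange diamonds). Hoxd13 is the only gene clearly above 0 in both, at 0.46 and 1.34, and Hoxd8 and Hoxd3 are at -0.39 in the knockout.

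The cluster's surroundings were measured as well. Evx2, a homeobox gene next to Hoxd13 on the 5′ side that shares its digit enhancers, was dim, with values of 5.77 and 5.83 in the knockout, against 5.59 and 5.69 in the wild type. Its difference of 0.16 ± 0.083 (SE) had an unadjusted p of 0.0975 in limma. All 7 neighbours tested on that side had higher mean knockout values, with a median of 0.11 and 0 with an unadjusted p under 0.05. Among them were Lnpk (0.021 ± 0.12), Atf2 (0.14 ± 0.077) and Atp5g3 (0.12 ± 0.091). Within number 48, Lnpk (-0.042), Chn1 (-0.019) and Wipf1 (-0.037) were lower in the knockout, and the others were higher at both numbers. On the 3′ side 3 of 5 were higher and 2 lower, with a median of 0.030; Mtx2, the nearest gene beyond Hoxd1, differed by -0.11 and Nfe2l2 by 0.10 ± 0.087, and 0 had an unadjusted p under 0.05. On both sides the highest difference was that of Evx2, below those of Hoxd13, Hoxd12, Hoxd11 and Hoxd10.

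Within the cluster, the antisense transcript Hoxd3os1 measured 5.62 and 5.50 in the knockout, against 5.70 and 5.62 in the wild type (difference -0.098 ± 0.087, SE). Its annotated span overlaps that of Hoxd3, and the strand its probes read is not known here. Mir10b, whose precursor lies inside the Hoxd4 and Hoxd3 spans, was too dim to be tested, at 5.15 to 5.19 on the 4 arrays. Its mature 5p form is shown from RefSeq with the seed, bases 2 to 8, in capitals, since it is the regulatory RNA made from within the cluster.
mmu-miR-10b-5p: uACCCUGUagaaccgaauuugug
The values are those of its probe set and are no measurement of the mature form.

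The paralogs of the 5′ genes in the HoxA cluster differed in the same direction. Of 7 tested genes of groups 9 to 13 in the other clusters, 6 had higher knockout values, the median difference was 0.32, and 4 had an unadjusted p under 0.05, all of them Hoxa genes on the higher side, as did 5.19% of all tested genes. The same share, or 10.2% in either direction, is the background of the list counts at an unadjusted p under 0.05 that follow. It is not the background of the counts of higher and lower genes. For those, the median difference over all tested genes was -0.00098. Hoxa13, the partner of Hoxd13 in the hand plate, differed by 0.98 ± 0.28 (SE), Hoxa10 by 0.37 ± 0.089, Hoxa11 by 0.33 ± 0.096 and Hoxa9 by 0.32 ± 0.079. Hoxd13 was thus above Hoxa13, Hoxd11 above Hoxa11 and Hoxd10 above Hoxa10 in the size of the difference, while Hoxd9 (0.13) was below Hoxa9; these gaps between genes were not tested. The genes of groups 1 to 8 in the other clusters had a median of -0.13, with 5 of 15 higher and 10 lower. Higher values in HoxA were not confined to groups 9 to 13: Hoxa6 (0.35 ± 0.17) was above Hoxa9 and Hoxa11 in the size of the difference. Hoxa3 (0.16) and Hoxa7 (0.037) were also higher, while Hoxa2 (-0.15) and Hoxa4 (-0.13) were lower. Hoxb4 (-0.36 ± 0.097) and Hoxb6 (-0.27 ± 0.084) had an unadjusted p under 0.05 on the lower side and Hoxa5 (0.25 ± 0.094) on the higher. None of these paralogs passed limma's test over all genes.

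Hedgehog and posterior limb genes gave no shared direction. This list holds targets of the pathway, such as Ptch1, beside inputs to Hoxd expression, so no single direction was predicted for it. Of 12 hedgehog and posterior genes tested, 6 had higher and 6 lower knockout values, with a median of -0.0048. Tbx2 and Hand2, which encode T-box and basic helix-loop-helix factors, differed by 0.48 ± 0.086 and 0.41 ± 0.10 (SE) and were the only members with an unadjusted p under 0.05. Shh differed by 0.18 ± 0.089, and its receptor and target gene Ptch1 by -0.14 ± 0.092. All 7 ridge signals and related genes tested had higher values, with a median of 0.14; Fgf17, a growth factor of the apical ridge (0.36 ± 0.13), and Wnt5a, a signal of distal mesenchyme (0.25 ± 0.087), had an unadjusted p under 0.05. The 3 genes of this list too dim to be tested, Fgf8 (-0.11), Sp6 (-0.0060) and Sp8 (-0.00073), had lower knockout values.

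Genes that background knowledge places downstream of HOX13 or HOXD proteins had a median difference of 0.089, with 10 of 13 higher. Shox2, the targeted gene, is on this list. Gdf5, a growth factor of joints and digits (0.76 ± 0.13, SE), and Epha7, an Eph receptor of digit condensations (0.47 ± 0.090), had an unadjusted p under 0.05 on the higher side. Lhx9 (0.18 ± 0.11) and Efna1 (0.16 ± 0.11) did not.

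Genes of the distal and of the proximal limb both included members in each direction, and the difference between the lists was not tested. Of 12 distal genes, 8 had higher values, with a median of 0.15, and 6 had an unadjusted p under 0.05 on the higher side, led by Sall1 (0.90 ± 0.17), Lhx2 (0.45 ± 0.085), Cyp26b1 (0.56 ± 0.12) and Lmx1b (0.37 ± 0.081). These encode a zinc finger factor, a pair of LIM homeodomain factors and an enzyme that degrades retinoic acid. On the lower side 1 did, the transcriptional repressor gene Prdm1 (-0.27). Of 9 proximal and TALE genes, 6 were lower in the knockout; the list's median was -0.075 in all, -0.21 within number 48 and 0.064 within number 50. Meis1, whose product is a cofactor of HOX proteins, differed by -0.14 ± 0.082 and Tbx18 by -0.47 ± 0.10, while Irx5 differed by 0.23 ± 0.083. In limma 0 genes of these lists passed over all genes. The share of distal and proximal tissue in the pools was not measured separately, and its part in the Hoxd differences was not tested.

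Likeness to Hoxd13 was measured as the root mean square difference between the 4 log2 values of a pair of genes, after each gene was centred on its own mean. By this measure the nearest of all tested genes outside the cluster was Hoxa13, at 0.44, followed by Rps7 (0.52), Hsd3b6 (0.54), Hoxa11os (0.55), Gm1943 (0.58) and Npm1 (0.60). All 6 had their lowest value in the wild-type array numbered 48 and their highest in the knockout array numbered 50, as Hoxd13 did. These genes were picked for values like those of Hoxd13, so the shared order follows largely from the choice. Even the nearest had a smaller range than Hoxd13: Hoxa13 read 7.02 and 7.81 in the knockout, against 6.15 and 6.72 in the wild type. Within the cluster the gene nearest to Hoxd13 was Hoxd12, at 0.75, further away than any of these 6. The closest pair among all 9 was Hoxd4 and Hoxd1, at 0.021, a pair with little spread on any array, and among the 5′ genes it was Hoxd11 and Hoxd10, at 0.077.

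**Figure D5:**
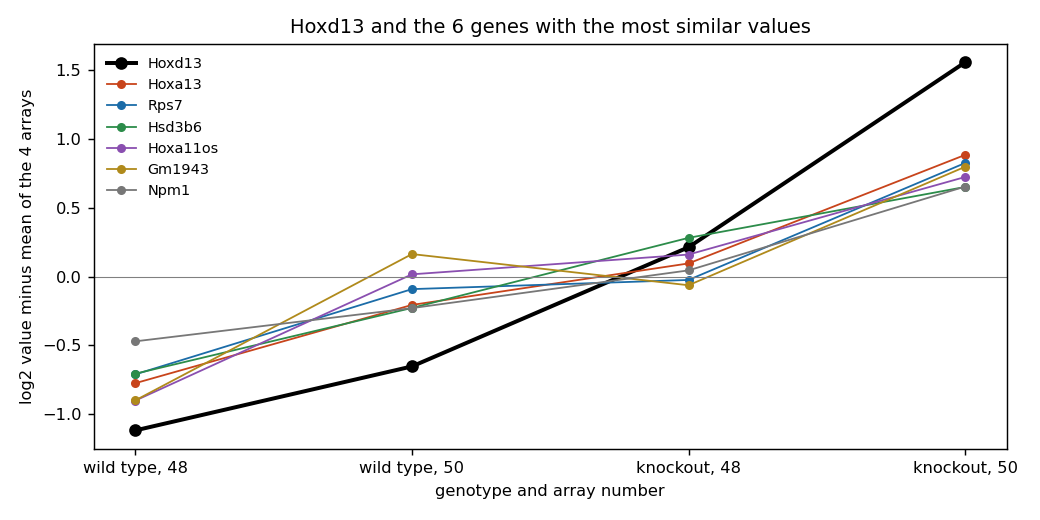
Log2 values of Hoxd13 (black) and of the 6 genes outside the cluster with the smallest root mean square difference from it, each centred on its mean over the 4 arrays; lines only join values of the same gene. All 7 are lowest in the wild-type array numbered 48 and highest in the knockout array numbered 50, and Hoxd13 spans the widest range.

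For the smaller differences many genes came close. The 3 nearest to Hoxd12 were A530032D15Rik (0.028), Magea2 (0.041) and Snord8 (0.048). Nearest to Hoxd11 were Lrba (0.011), Hand2 (0.036) and Trim43c (0.043), and nearest to Hoxd10 were Olfr310 (0.021), Pcdh7 (0.029) and Sorcs3 (0.030). Hand2, which like Hoxd11 is expressed in the posterior limb bud, read 9.14 and 8.98 in the knockout, against 8.73 and 8.56 in the wild type. With 4 arrays and 14095 genes, close matches are plentiful, and these names are a description of the arrays.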

How the data were processed

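Forelimb RNA was labelled with biotin by the Affymetrix procedure, per the labels' protocols. The authors deposited log2 values per probe set, used here as given. Their sorted values agreed within 0.00171 across the 4 arrays, as quantile normalization leaves them; that step hides any shift common to most genes. Platform software, background correction and summarisation are not given in the sources used here. Of 25206 probe sets, 23185 had 1 gene name, 0 several and 2021 none (platform annotation); 0 symbols changed on lookup through Entrez Gene. Named genes with a mean at or above percentile 40 (log2 5.60) were tested, 14095 in all, with limma 3.58.1 in R 4.3.3 (lmFit, eBayes, two-sided, no covariate, Benjamini-Hochberg over all of them, threshold 0.05). The same procedure was tested on simulated data. Arrays have no depth: their number (n = 2 pools per genotype) limits the precision. Each p-value and SE weighs the gene's own spread between pools, with 2 residual degrees of freedom, and a variance estimated over all tested genes. The latter counts for 4.61 degrees of freedom, and for 8.56 against 1 with array number as a term. Named genes were all members, Shox2, Evx2, up to 4 genes per list with the smallest unadjusted p, and the genes most alike. Lnpk, Mtx2, Shh, Ptch1, Meis1, Fgf8, the sex-linked genes, Hoxd3os1 and Mir10b were chosen for their place or role. Chn1, Sp6, Sp8, Prdm1, Hoxa2, Hoxa3, Hoxa4, Hoxa7, Tbx5 and Pdgfra were added to show how other members of their lists read. Members and lists were chosen with earlier results of these data known. Alternatives were other filters, normalizations and variance models, unnamed probe sets, a block for array number, and each array left out.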

Additional observations from a re-analysis of the deposited data

How the results depend on the processing

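The labels give the numbers 48 and 50 to both genotypes without saying what they mark, so the samples were taken to share only a number; the differences between numbers in the 2 genotypes correlated across genes (Pearson's r = 0.39, 14095 genes, which are not independent replicates), and with 2 pairs this does not settle whether the numbers pair the pools. With the number as a replicate block, limma called 382 genes (2.71%; 203 higher, 179 lower) in place of 3, among them Hoxd13 (adjusted p = 0.00169), Hoxd12 (0.0114), Hoxd11 (0.0211) and Hoxd10 (0.0345); that fit leaves 1 residual degree of freedom. With each array left out, the count over all genes was 4 to 5, the count of Hoxd genes at an unadjusted p under 0.05 was 4 to 5, and their median difference was 0.16 to 0.40. The median was 0.13 without the filter, where Hoxd1 enters, and 0.44 at percentile 60, where Hoxd3 drops out. With each array left out, 3 small differences changed sign: that of Hoxd9 ran from -0.0024 to 0.25 and that of Hoxd3 from -0.078 to 0.32, both below 0 without knockout array 48, and that of Hoxd8 from -0.28 to 0.11, above 0 without knockout array 50; the cause was not tested. The differences of Hoxd13, Hoxd12, Hoxd11 and Hoxd10 were above 0 in every alternative run. With 1 array left out, this follows from the separation of their arrays by genotype. Other filters, variance models and the block leave these differences unchanged, so their sign could not turn there. Array number and signal near the bottom of the range limit what could be seen for Hoxd1, Evx2 and Mir10b.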
